A study of Mus musculus with 18 samples.

Results

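Homologous recombination copies the sequence of a sister chromatid to mend a broken chromosome, and the Fanconi pathway unhooks crosslinks that tie the strands of DNA together and hands the resulting breaks to recombination. The transcripts of 34 genes of these pathways were followed through 6 mouse respiratory cell populations. The genes were a given list of symbols, matched to the Entrez identifiers of the count files; all 34 were found among 27179 genes, and all 34 were among the 17989 genes expressed highly enough to be tested. By role they comprised 7 genes of end sensing and resection, 5 BRCA mediators, 5 paralogs (*Rad51b*, *Rad51c*, *Rad51d*, *Xrcc2* and *Xrcc3*), 3 strand exchange factors, 8 genes of the Fanconi core and its ubiquitin-conjugating enzyme, the substrate pair *Fancd2* and *Fanci*, and 4 structure-specific nucleases or their scaffold.

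The study asked how stem and progenitor cells of the airway and the alveolus differ in their handling of DNA damage, and RNA was sequenced from sorted cells of untreated C57BL/6 mice. BSCs, the basal stem cells, were taken from trachea as NGFR-positive cells of mice 1, 2 and 3, and the NGFR-negative tracheal cells of these mice formed the non-basal population. From the lungs of mice 4, 5 and 6 came alveolar cells (EpCAM-positive with low CD104), a CD24hi airway gate labelled as enriched in ciliated cells, a CD24lo airway gate labelled as enriched in club cells, and EpCAM-negative, non-epithelial cells. Each population therefore had 3 libraries from 3 animals. Population was the only term of the fit, so the adjusted p-values rest on the spread between libraries within populations, pooled over all 6. Libraries of the same mouse were treated as independent, and counts with mouse as a block are given below. By the mouse numbers in the labels, BSCs and alveolar cells differed in cell type, in organ and in animal, which cannot be told apart; the design text of the series names airways of 6 lungs and no trachea, and the labels of the single samples were followed. The mice of the study were young adult males.

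In a cell that has copied its DNA, the ends of a break are trimmed to single strands, BRCA proteins and the paralogs prepare these strands, and motor proteins help them to invade the intact sister. The Fanconi core is a ubiquitin ligase that marks *Fancd2* and *Fanci* products at a crosslink, after which nucleases cut the DNA beside it. Many of these genes are known to be transcribed most in S and G2 phase, so proliferation markers and replication genes were counted alongside.

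Counted reads numbered 29317215 to 32993621 in the 6 tracheal libraries and 9811503 to 13208897 in the 12 lung libraries, so scarce transcripts carried a larger counting error in lung. Members had between 328 and 16190 reads over the 18 libraries. Levels are given in RPKM, reads scaled to the length of the gene and to the TMM-scaled size of the library, and differences as log2 fold changes from an edgeR quasi-likelihood fit of all 18 libraries. A gene was called at an adjusted p-value (Benjamini-Hochberg, over all genes tested) under 0.05. In RNA from a sorted population, fewer expressing cells and less RNA per cell cannot be told apart.

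Marker lists held 6 genes each, with values summed in CPM, reads scaled to the TMM-scaled library size but not to gene length. Basal markers reached 5036 to 5204 in BSCs against 387.1 to 504.3 in non-basal cells and at most 273.8 elsewhere. Ciliated markers were at 6567 to 7178 in CD24hi cells against at most 1198 elsewhere, and club markers at 257800 to 360000 in CD24lo cells against at most 86400 elsewhere. The club sum was mostly *Scgb1a1*, at 598600 RPKM in CD24lo cells against 60180 RPKM in non-basal cells. *Hp* was also higher in CD24lo cells, but *Scgb3a1*, *Cyp2f2*, *Scgb3a2* and *Aldh1a1* had higher means in non-basal than in CD24lo cells. Alveolar type 2 markers were at 187600 to 208700 in alveolar cells and type 1 markers at 2070 to 2161, against at most 11870 and 1121 elsewhere. The type 1 sum of alveolar cells was mostly *Ager*, at 1140 RPKM. Of the 6 type 1 markers, 2 were called higher and 3 lower in CD24lo than in alveolar cells, and 2 higher and 4 lower in CD24hi cells. In EpCAM-negative cells 2 were lower than in alveolar cells and 4 were not called. Stromal markers were at 34920 to 36390 in EpCAM-negative cells against at most 1805 elsewhere. Endothelial markers summed to at most 2.996 in trachea, where *Cdh5*, *Cldn5* and *Emcn* had no reads in BSCs, but they did not follow the gates of the lung. They were at 454.2 to 944.4 in CD24lo cells and 199.3 to 686.7 in CD24hi cells, against 464.3 to 788.3 in EpCAM-negative cells and 149.7 to 296.8 in alveolar cells, and their part in the members' differences was not tested. Immune markers were at 23 to 121.3 in all libraries, highest in EpCAM-negative cells.

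Of the 34 members, 21 had their highest mean RPKM in BSCs, 7 in EpCAM-negative cells, 2 each in non-basal and CD24hi cells, and 1 each in CD24lo and alveolar cells. For *Nbn*, *Blm*, *Wrn*, *Rad51c*, *Fancm*, *Ube2t* and *Slx4* the BSC libraries overlapped with those of the next population. Highest and lowest populations were not counted over all genes, so these counts have no background beside them. The lowest mean fell in CD24hi cells for 11 members, in EpCAM-negative cells for another 11, and in CD24lo, alveolar or non-basal cells for 4 each; it fell in BSCs for 0. Summed over the list, members made up 492 to 496 CPM in BSCs, 396.2 to 407.9 in non-basal cells and 301.8 to 319.9 in alveolar cells. In CD24hi, CD24lo and EpCAM-negative cells the sums were 328.3 to 333.3, 309 to 318.4 and 413.8 to 441.1.

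**Figure D1:**
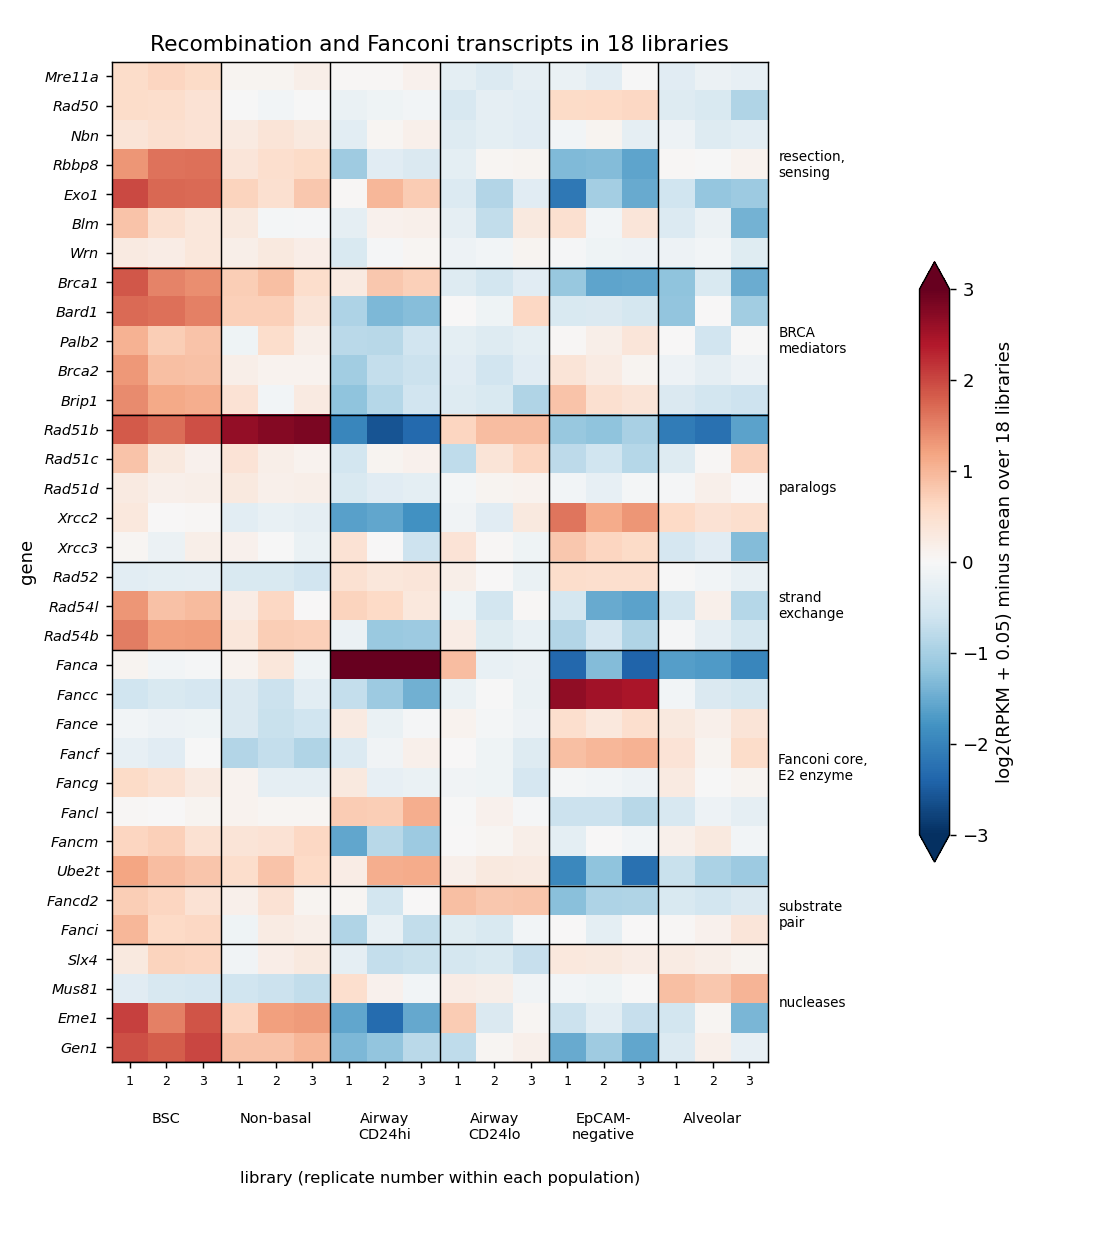
Level of each member (rows, grouped by role) in each of the 18 libraries (columns, 3 per population), as log2(RPKM + 0.05) minus the mean of that gene over all libraries; red is above and blue below that mean, and colours end at 3 on either side. BSC columns are red for most rows, while *Fanca* stands out in the CD24hi columns, *Fancc* in the EpCAM-negative columns and *Rad51b* in the tracheal columns.

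Most of the listed recombination and Fanconi transcripts were more abundant in BSCs than in alveolar cells. Of the 34 members, 25 were higher, 3 were lower (*Mus81*, *Fancf* and *Fance*) and 6 were not called, that is 28 called; among all genes tested 66.1% were called, 30.5% higher and 35.6% lower. The median log2 fold change was 0.96 over the members and -0.09 over all genes. The members were chosen with earlier results of these data known. Among 37 other genes of these pathways, 15 were higher, 6 lower and 16 not called, with a median of 0.09. All 7 resection genes and all 5 BRCA mediators were higher, under TMM and under each of the other 3 scalings tried. The substrate pair was higher, as were the motor proteins *Rad54l* and *Rad54b*, 3 of 4 nuclease genes, 4 of 8 core genes and 2 of 5 paralogs. Under library size alone and under a gene-length correction, *Mus81* was the 1 member called lower. The 6 that were not called were *Rad51c*, *Rad51d*, *Xrcc2*, *Rad52*, *Fancc* and *Fancg*, with log2 fold changes between -0.40 (*Xrcc2*) and 0.32 (*Fancg*).

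Part of this difference was also present inside the trachea, where BSCs and non-basal cells came from the same mice. There 18 members were higher in BSCs, 1 was lower (*Rad51b*) and 15 were not called, 19 called in all, against 48.2% of all genes tested (21.9% higher and 26.2% lower). The median log2 fold change was 0.45 over the members and -0.02 over all genes. All 5 BRCA mediators were again higher, with 4 of 7 resection genes, 2 of 3 strand exchange factors, 3 of 8 core genes (*Fance*, *Fancf* and *Fancg*), *Fanci* and 3 of 4 nuclease genes. The core genes were not those that were higher against alveolar cells, where *Fance* and *Fancf* were lower and *Fancg* was not called. *Fanca*, *Fancl*, *Fancm* and *Ube2t*, higher against alveolar cells, were not called against non-basal cells. Scaled by library size only, 29 members were higher and 1 lower, while the median of all genes moved to 0.31. Both comparisons use the same BSC libraries.

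**Figure D2:**
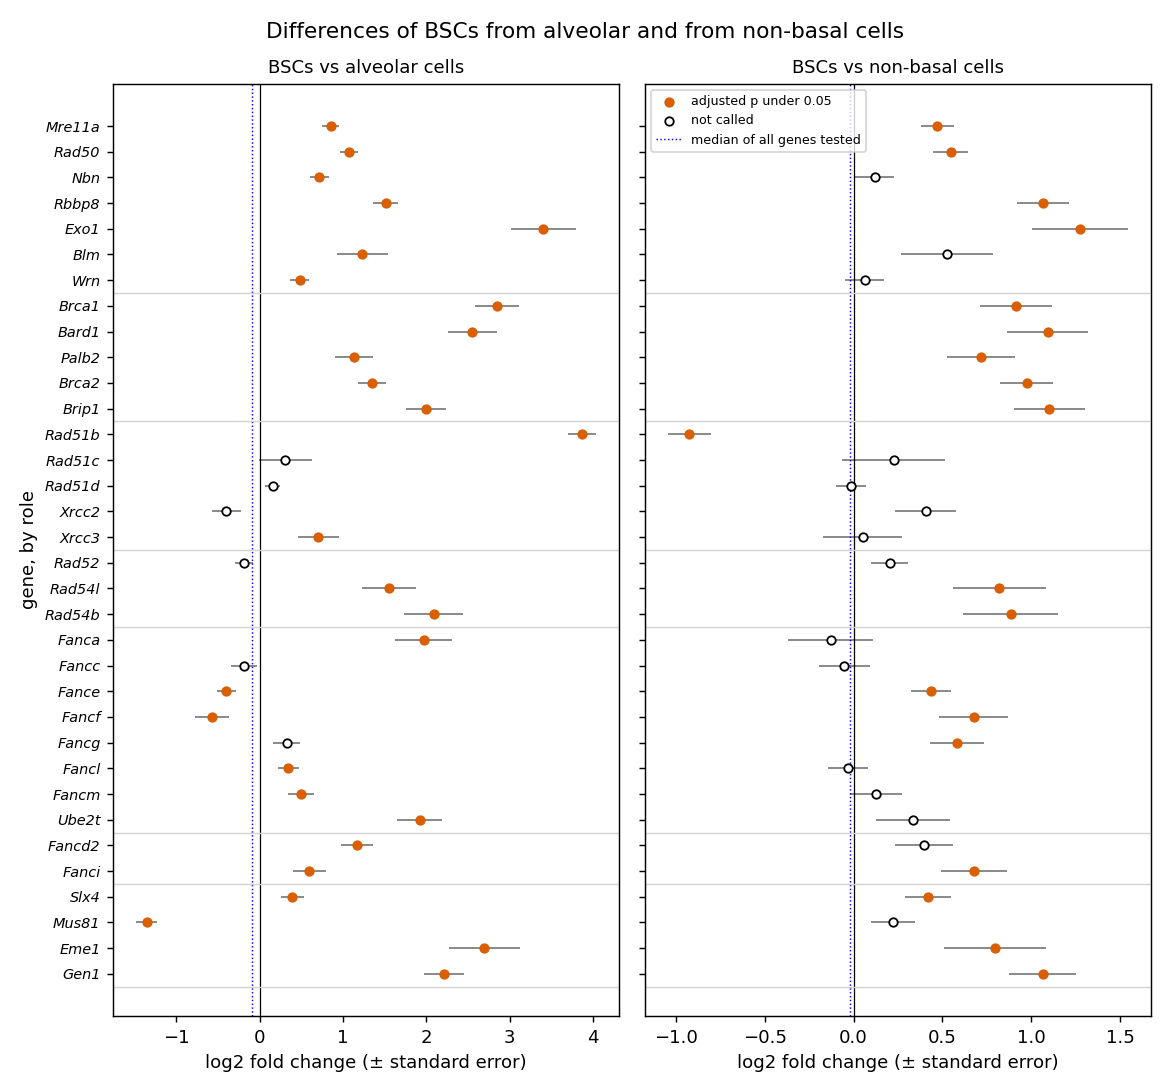
Log2 fold change of each member (rows, by role) in BSCs against alveolar cells (left) and against non-basal tracheal cells (right). Horizontal lines show the standard error, derived from the test statistic. Filled points had an adjusted p-value under 0.05, open points did not, and the dotted line is the median of all genes tested (-0.09 and -0.02). The horizontal scale is wider in the left panel.

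The resection genes ranged from abundant end-sensing subunits to scarce nucleases. *Mre11a*, *Rad50* and *Nbn* encode the complex that first binds a broken end, and their means in BSCs were 6.19, 9.21 and 15.5 RPKM against 3.43, 4.37 and 9.4 RPKM in alveolar cells. *Rbbp8*, which encodes the CtIP protein that starts resection with this complex, was the most abundant member in BSCs. *Rbbp8* was measured at 19.4, 23.8 and 24.4 RPKM in BSC libraries, 9.94, 11 and 11.4 RPKM in non-basal libraries and 7.81, 7.66 and 8.3 RPKM in alveolar libraries. CD24hi libraries held 3.66, 6.08 and 5.68 RPKM, CD24lo libraries 6.28, 7.98 and 8.08 RPKM and EpCAM-negative libraries 3.02, 3.09 and 2.52 RPKM. All 3 BSC libraries lay above every other library, and EpCAM-negative cells were lowest. *Rbbp8* was higher in BSCs than in non-basal cells (log2 fold change 1.07, SE 0.15, adjusted p = 9.79e-06) and than in alveolar cells (log2 fold change 1.51, SE 0.15, adjusted p = 1.00e-07).

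*Exo1* encodes the exonuclease that carries resection over long distances. *Exo1* was measured at 0.832, 0.688 and 0.667 RPKM in BSC libraries, 0.303, 0.262 and 0.337 RPKM in non-basal libraries and 0.096, 0.0501 and 0.055 RPKM in alveolar libraries. Among the other gates of the lung, CD24hi cells had 0.178, 0.39 and 0.329 RPKM, CD24lo cells 0.117, 0.0713 and 0.125 RPKM and EpCAM-negative cells 0, 0.06 and 0.0277 RPKM. The EpCAM-negative value of 0 is a library without a read, and the 3 EpCAM-negative libraries held 6 reads in all against 428 in BSCs. Alveolar and CD24lo libraries held 12 and 17 reads in all. BSC libraries did not overlap with any other population, and the difference was large against alveolar cells (log2 fold change 3.40, SE 0.39, adjusted p = 6.23e-07) and smaller against non-basal cells (log2 fold change 1.27, SE 0.27, adjusted p = 0.000774). The helicase genes *Blm* and *Wrn* exceeded their alveolar levels in BSCs by 1.23 and 0.48 on the log2 scale, and neither was called against non-basal cells (0.53 and 0.06).

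The BRCA mediators were scarce transcripts, with no population mean above 1.41 RPKM, and all 5 were highest in BSCs. *Brca1* and *Bard1* encode the partners of a ubiquitin ligase that promotes resection. *Brca1* was measured at 1.72, 1.31 and 1.22 RPKM in BSC libraries, 0.753, 0.851 and 0.647 RPKM in non-basal libraries and 0.159, 0.305 and 0.121 RPKM in alveolar libraries. Its values were 0.534, 0.791 and 0.745 RPKM in CD24hi, 0.319, 0.281 and 0.329 RPKM in CD24lo and 0.169, 0.112 and 0.115 RPKM in EpCAM-negative libraries. The 3 BSC libraries lay above all others, while the CD24hi libraries (which reached 0.791) overlapped with the non-basal ones. *Brca1* was higher in BSCs than in alveolar cells (log2 fold change 2.84, SE 0.26, adjusted p = 3.59e-08) and than in non-basal cells (log2 fold change 0.91, SE 0.20, adjusted p = 0.00122).

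*Bard1* was measured at 1.02, 1 and 0.902 RPKM in BSC libraries, 0.494, 0.496 and 0.383 RPKM in non-basal libraries and 0.097, 0.287 and 0.111 RPKM in alveolar libraries. The remaining lung gates gave 0.125, 0.0816 and 0.0866 RPKM (CD24hi), 0.287, 0.252 and 0.465 RPKM (CD24lo) and 0.192, 0.197 and 0.182 RPKM (EpCAM-negative). Unlike *Brca1*, its partner *Bard1* had its lowest mean in CD24hi cells, where the 3 libraries held 21 reads in all. The BSC excess was of like size for *Bard1* as for *Brca1* against alveolar cells (log2 fold change 2.55, SE 0.30, adjusted p = 6.56e-07), and it was called against non-basal cells too (log2 fold change 1.09, SE 0.23, adjusted p = 0.000714). *Brca2*, which acts on the resected strand, and *Palb2*, which ties *Brca2* to *Brca1*, followed.

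*Brca2* was measured at 1.07, 0.803 and 0.781 RPKM in BSC libraries, 0.467, 0.442 and 0.44 RPKM in non-basal libraries and 0.361, 0.326 and 0.357 RPKM in alveolar libraries. CD24hi libraries held 0.169, 0.228 and 0.242 RPKM, CD24lo libraries 0.309, 0.256 and 0.311 RPKM and EpCAM-negative libraries 0.546, 0.492 and 0.433 RPKM. No other population reached the BSC libraries, and EpCAM-negative cells came next, above non-basal cells by mean. *Brca2* was higher in BSCs than in non-basal cells (log2 fold change 0.98, SE 0.15, adjusted p = 3.34e-05) and by 1.34 against alveolar cells. *Palb2* was at a mean of 0.896 ± 0.0972 RPKM (SD, n = 3) in BSCs and a mean of 0.408 ± 0.098 RPKM (SD, n = 3) in alveolar cells. *Brip1* encodes a helicase that binds *Brca1* and is itself a Fanconi protein. *Brip1* was measured at 0.874, 0.709 and 0.68 RPKM in BSC libraries, 0.413, 0.274 and 0.366 RPKM in non-basal libraries and 0.203, 0.186 and 0.175 RPKM in alveolar libraries. Among the other gates of the lung, CD24hi cells had 0.098, 0.139 and 0.182 RPKM, CD24lo cells 0.212, 0.198 and 0.133 RPKM and EpCAM-negative cells 0.568, 0.429 and 0.395 RPKM. Again the BSC libraries stood above the rest, with EpCAM-negative cells next. The difference was 2.00 against alveolar cells and was called against non-basal cells (log2 fold change 1.10, SE 0.20, adjusted p = 0.000192).

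Promoter windows of RefSeq (build GRCm38.p6, the 250 bases before to the 50 bases after a transcript start) were found for 25 of the 34 members. They were searched on both strands for the E2F-type letters TTCCCGC or TTGGCGC or TTCGCGC or TTGCCGC, a short form of the site bound by E2F factors, which are known to drive genes of S phase. Of the 25 members, 12 (48.0%) held a match, against 13.74% of 17491 protein-coding genes and 10.86% of all 27025 genes in that table. The median GC content of the windows was 59.67% in members and 56.33% in protein-coding genes. By the call in BSCs against alveolar cells, a match was found in 8 of 18 members that were higher, 1 of 3 that were lower and 3 of 4 that were not called. The letters TTTGAA or TTTAAA of the cell cycle homology region were found in 5 of 25 members (20.0%), against 28.24% of protein-coding genes. A match describes the letters in the window, and binding was not measured. The first 4 windows shown belong to BRCA mediators that were higher in BSCs in both comparisons, and the last pair to *Rad52* and *Fancf*, which were not higher than in alveolar cells; capitals mark the match, read 5′ to 3′ on the strand of the gene.
Bard1 (chr1:71103163-71103191, minus strand): cgccgctcagtTTCCCGCtcaggaagttt
Brca1 (chr11:101551917-101551945, minus strand): gctagcgctagGCGCCAAgcggccggttt
Brca2 (chr5:150522442-150522470, plus strand): tttaggccacaGCGGGAAacagacacaca
Brip1 (chr11:86201180-86201208, minus strand): aggggcgggagGCGCGAAttcatctgtgt
Rad52 (chr6:119902555-119902583, plus strand): ttgctgcggctGCGGGAAggctgatcgcc
Fancf (chr7:51862371-51862399, minus strand): gttcattttcaGCGCCAAtgtgccccgga

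Of the 5 paralogs, which act in complexes on the resected strand, *Rad51b* varied most. It was highest in the tracheal populations, more so in non-basal cells than in BSCs, and CD24lo cells of the lung came next. *Rad51b* was measured at 11.8, 10.4 and 12.6 RPKM in BSC libraries, 20.6, 22.2 and 23.2 RPKM in non-basal libraries and 0.714, 0.649 and 1.03 RPKM in alveolar libraries. Its values were 0.798, 0.496 and 0.61 RPKM in CD24hi, 5.1, 6.2 and 6.17 RPKM in CD24lo and 1.44, 1.37 and 1.64 RPKM in EpCAM-negative libraries. Non-basal cells were highest, followed by BSCs and CD24lo cells, with no overlap between these 3 populations, and CD24hi and alveolar libraries overlapped at the bottom. *Rad51b* had the largest rise of all members in BSCs against alveolar cells (log2 fold change 3.87, SE 0.17, adjusted p = 9.22e-13) and the only fall against non-basal cells (log2 fold change -0.92, SE 0.12, adjusted p = 6.46e-06). Club markers summed to 15640 to 18330 CPM in BSCs and 80580 to 86400 in non-basal cells; the part of these cells in the *Rad51b* difference was not tested.

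*Rad51d* and *Rad51c* were not called in either BSC comparison. *Rad51d* was measured at 4.36, 4.03 and 4.08 RPKM in BSC libraries, 4.46, 4.01 and 4.11 RPKM in non-basal libraries and 3.51, 4.04 and 3.66 RPKM in alveolar libraries. The remaining lung gates gave 2.63, 2.83 and 2.92 RPKM (CD24hi), 3.47, 3.81 and 3.86 RPKM (CD24lo) and 3.39, 3.06 and 3.49 RPKM (EpCAM-negative). Its highest mean, in non-basal cells, overlapped with the BSC values, and CD24hi libraries were the lowest. The length that the files give to *Rad51d* (7062 bases) exceeds its 3714 exonic bases in the GENCODE annotation, so its RPKM may be understated beside other genes. Against CD24lo and alveolar cells the CD24hi level of *Rad51d* fell by 0.41 and 0.42 on the log2 scale, and both were called. *Rad51c* was at a mean of 1.22 ± 0.356 RPKM (SD, n = 3) in BSCs and a mean of 0.998 ± 0.398 RPKM (SD, n = 3) in alveolar cells, a log2 fold change of 0.30 that was not called.

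*Xrcc2* and *Xrcc3*, the remaining paralogs, were highest outside the epithelium. *Xrcc2* was measured at 1.23, 0.988 and 1.01 RPKM in BSC libraries, 0.784, 0.841 and 0.81 RPKM in non-basal libraries and 1.51, 1.34 and 1.41 RPKM in alveolar libraries. CD24hi libraries held 0.281, 0.299 and 0.244 RPKM, CD24lo libraries 0.916, 0.763 and 1.22 RPKM and EpCAM-negative libraries 3.1, 2.18 and 2.53 RPKM. Every EpCAM-negative library was above every epithelial one, and every CD24hi library was below all others. *Xrcc3* was measured at 3.51, 2.98 and 3.79 RPKM in BSC libraries, 3.67, 3.34 and 2.92 RPKM in non-basal libraries and 2.33, 2.62 and 1.33 RPKM in alveolar libraries. Among the other gates of the lung, CD24hi cells had 4.55, 3.4 and 2.14 RPKM, CD24lo cells 4.45, 3.41 and 3.04 RPKM and EpCAM-negative cells 5.9, 5.22 and 5 RPKM. For *Xrcc3* the EpCAM-negative libraries were again the highest, alveolar libraries were lowest by mean, and the airway gates spread widely between animals.

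Among strand exchange factors, *Rad52*, which anneals single strands, behaved unlike *Rad54l* and *Rad54b*, motor proteins that help to open the sister duplex. *Rad52* was measured at 4.27, 4.32 and 4.45 RPKM in BSC libraries, 3.89, 3.87 and 3.56 RPKM in non-basal libraries and 5.3, 5.02 and 4.59 RPKM in alveolar libraries. Its values were 7.4, 6.78 and 6.88 RPKM in CD24hi, 6, 5.36 and 4.66 RPKM in CD24lo and 7.67, 7.64 and 7.55 RPKM in EpCAM-negative libraries. EpCAM-negative and CD24hi libraries were the highest and tracheal libraries the lowest, without overlap between these sets. *Rad54l* and *Rad54b* exceeded their alveolar levels in BSCs by 1.55 and 2.09, at 0.893 and 0.34 RPKM in BSCs. Of the *Rad54b* exonic bases, 35.9% are shared with *Fsbp* and other genes, so its reads cannot be assigned with certainty.

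In the Fanconi core, *Fanca* and *Fancc* were each several-fold higher in 1 population than in all the others. For *Fanca*, a core subunit, that population was the CD24hi gate. *Fanca* was measured at 0.896, 0.791 and 0.821 RPKM in BSC libraries, 0.9, 1.08 and 0.76 RPKM in non-basal libraries and 0.233, 0.223 and 0.178 RPKM in alveolar libraries. The remaining lung gates gave 11, 10.1 and 9.65 RPKM (CD24hi), 1.64, 0.714 and 0.735 RPKM (CD24lo) and 0.124, 0.309 and 0.117 RPKM (EpCAM-negative). In CD24hi cells a mean of 10.2 ± 0.7 RPKM (SD, n = 3) compared with at most 1.03 RPKM elsewhere, and CD24hi libraries overlapped with no other. *Fanca* shares 10.5% of its exonic bases with the antisense gene *Zfp276*, whose log2 fold change was -0.01 between CD24hi and alveolar cells (adjusted p = 0.969) and 0.56 between CD24hi and CD24lo cells (adjusted p = 0.000317); the part of shared reads was not tested. *Fancl*, the ligase subunit that binds the ubiquitin-conjugating enzyme, was highest in the same gate.

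*Fancl* was measured at 4.84, 4.78 and 5.03 RPKM in BSC libraries, 5.07, 4.95 and 4.95 RPKM in non-basal libraries and 3.38, 4.25 and 3.92 RPKM in alveolar libraries. CD24hi libraries held 8.04, 7.89 and 10.1 RPKM, CD24lo libraries 4.72, 5.2 and 4.6 RPKM and EpCAM-negative libraries 3.03, 3.02 and 2.66 RPKM. The CD24hi libraries exceeded the rest, the tracheal and CD24lo libraries overlapped, and EpCAM-negative libraries were lowest. *Ube2t*, which encodes that conjugating enzyme, was instead at a mean of 3.73 ± 0.482 RPKM (SD, n = 3) in BSCs and a mean of 3.41 ± 1.08 RPKM (SD, n = 3) in CD24hi cells, and these overlapped. *Fancm*, which anchors the core to DNA, had its lowest mean in CD24hi cells, 0.54 RPKM against 1.93 RPKM in BSCs.

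*Fancc*, *Fance* and *Fancf* encode the members of a subcomplex inside the core, and all 3 were highest in EpCAM-negative cells. *Fancc* was measured at 3, 3.29 and 3.2 RPKM in BSC libraries, 3.33, 2.87 and 3.64 RPKM in non-basal libraries and 4.29, 3.37 and 3.15 RPKM in alveolar libraries. Among the other gates of the lung, CD24hi cells had 2.74, 2.11 and 1.63 RPKM, CD24lo cells 3.93, 4.53 and 3.92 RPKM and EpCAM-negative cells 29.1, 26.4 and 25.2 RPKM. The EpCAM-negative libraries held at least 25.2 RPKM and no other library more than 4.53 RPKM. Of the *Fancc* exonic bases, 18.6% are shared with genes on the opposite strand (*Gm16133* and *2010111I01Rik*), and whether the counting used strand was not given in the sources used here.

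*Fance* was measured at 9.73, 9.29 and 9.4 RPKM in BSC libraries, 7.67, 6.5 and 6.83 RPKM in non-basal libraries and 12.7, 11.4 and 13.5 RPKM in alveolar libraries. Its values were 12.4, 9.04 and 10.1 RPKM in CD24hi, 11.1, 9.94 and 9.36 RPKM in CD24lo and 14.7, 12.9 and 14.7 RPKM in EpCAM-negative libraries. EpCAM-negative and alveolar libraries overlapped at the top, BSC, CD24hi and CD24lo libraries overlapped in the middle, and non-basal libraries were lowest. *Fance* was lower in BSCs than in alveolar cells (log2 fold change -0.40, SE 0.12, adjusted p = 0.00517) and higher than in non-basal cells by 0.44. The former call was lost with library size alone (log2 fold change 0.003, adjusted p = 0.992) and with a gene-length correction (-0.21, adjusted p = 0.0931), over 17 alternatives with adjusted p-values from 0.00181 to 0.992.

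*Fancf* was measured at 0.908, 0.85 and 1.07 RPKM in BSC libraries, 0.564, 0.644 and 0.558 RPKM in non-basal libraries and 1.46, 1.14 and 1.61 RPKM in alveolar libraries. The remaining lung gates gave 0.803, 1.01 and 1.21 RPKM (CD24hi), 1.09, 0.987 and 0.817 RPKM (CD24lo) and 2.09, 2.2 and 2.3 RPKM (EpCAM-negative). The order was that of *Fance*, from EpCAM-negative cells down to non-basal cells. *Fancf* was lower in BSCs than in alveolar cells (log2 fold change -0.57, SE 0.20, adjusted p = 0.0189), a call that was lost in 7 of 16 alternatives (adjusted p from 0.011 to 0.483), including without BSC replicate 2 (0.0655), alveolar replicate 1 (0.058) or alveolar replicate 3 (0.087). *Fancf* shares 15% of its exonic bases with *Gas2*, whose log2 fold change in the same comparison was -2.61; the part of shared reads was not tested. *Fancg*, another core subunit, was at a mean of 3.83 ± 0.395 RPKM (SD, n = 3) in BSCs and a mean of 3.06 ± 0.302 RPKM (SD, n = 3) in alveolar cells.

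**Figure D3:**
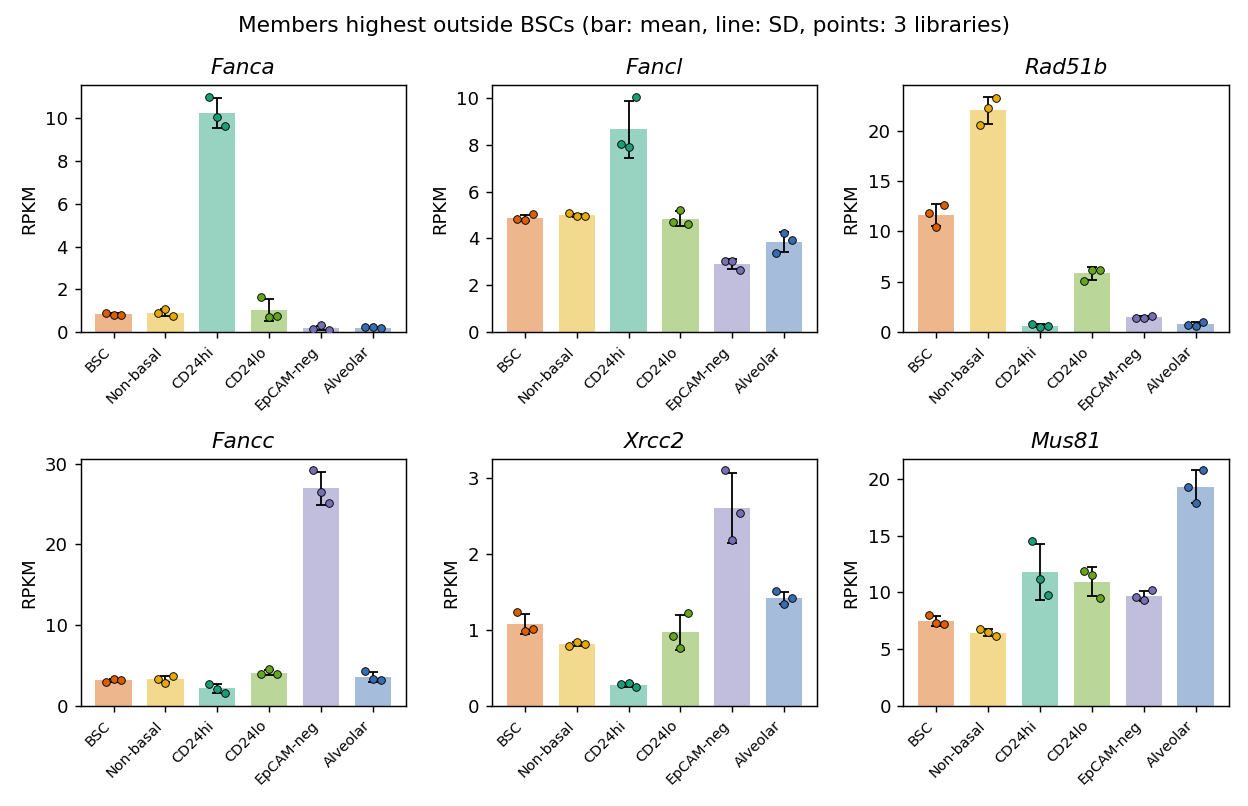
RPKM of 6 members with their highest mean outside BSCs, in 6 populations; bars show the mean and vertical lines the SD of 3 libraries, drawn as points, and each panel has its own axis from 0. *Fanca* and *Fancl* peak in CD24hi cells, *Rad51b* in non-basal cells, *Fancc* and *Xrcc2* in EpCAM-negative cells and *Mus81* in alveolar cells.

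The substrate pair did not share an order of populations. *Fancd2* was measured at 1.2, 1.12 and 0.969 RPKM in BSC libraries, 0.791, 0.962 and 0.749 RPKM in non-basal libraries and 0.498, 0.462 and 0.507 RPKM in alveolar libraries. CD24hi libraries held 0.742, 0.465 and 0.708 RPKM, CD24lo libraries 1.37, 1.27 and 1.3 RPKM and EpCAM-negative libraries 0.269, 0.345 and 0.351 RPKM. CD24lo libraries were highest, at 1.27 RPKM or more, and BSC libraries came next with at most 1.2 RPKM. *Fancd2* shares 3.24% of its exonic bases with the antisense gene *Fancd2os*. Against alveolar cells, the log2 fold change of *Fancd2os* was 3.549 in CD24lo cells and 4.081 in CD24hi cells, and the part of shared reads was not tested. *Fanci* was highest in BSCs, at a mean of 1.19 ± 0.2 RPKM (SD, n = 3), and in CD24lo cells it was at a mean of 0.552 ± 0.0846 RPKM (SD, n = 3). Both genes rose in BSCs against alveolar cells, by 1.17 and 0.60.

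The nucleases cut branched DNA, *Mus81* with its partner *Eme1* and *Gen1* on its own, and *Slx4* is a scaffold for several of them. *Mus81* and *Eme1* had opposite orders in BSCs and alveolar cells. *Mus81* was measured at 8.03, 7.31 and 7.24 RPKM in BSC libraries, 6.75, 6.48 and 6.14 RPKM in non-basal libraries and 19.3, 17.9 and 20.8 RPKM in alveolar libraries. Among the other gates of the lung, CD24hi cells had 14.5, 11.2 and 9.75 RPKM, CD24lo cells 11.9, 11.5 and 9.47 RPKM and EpCAM-negative cells 9.63, 9.32 and 10.2 RPKM. Alveolar libraries stood above all others and tracheal libraries were lowest, with BSCs lower than alveolar cells (log2 fold change -1.36, SE 0.13, adjusted p = 3.16e-08). *Mus81* shares 4.85% of its exonic bases with the antisense gene *Efemp2*, which had a log2 fold change of -2.61 in the same comparison.

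*Eme1* was measured at 0.97, 0.657 and 0.862 RPKM in BSC libraries, 0.336, 0.536 and 0.555 RPKM in non-basal libraries and 0.119, 0.206 and 0.0453 RPKM in alveolar libraries. Its values were 0.0339, 0 and 0.0353 RPKM in CD24hi, 0.372, 0.132 and 0.207 RPKM in CD24lo and 0.108, 0.148 and 0.103 RPKM in EpCAM-negative libraries. Reads were few outside trachea: the 3 libraries held 2 reads in CD24hi cells, with 1 library at 0, 9 in alveolar cells, 10 in EpCAM-negative cells and 16 in CD24lo cells, against 197 in BSCs. *Eme1* was higher in BSCs than in alveolar cells (log2 fold change 2.70, SE 0.43, adjusted p = 2.73e-05) and by 0.80 against non-basal cells. The ratio of BSCs to CD24hi cells was 36.4, with a 95% counting interval of 9.95 to 303 that covers counting error only.

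*Gen1* was measured at 1.57, 1.43 and 1.64 RPKM in BSC libraries, 0.716, 0.717 and 0.784 RPKM in non-basal libraries and 0.268, 0.42 and 0.307 RPKM in alveolar libraries. The remaining lung gates gave 0.115, 0.135 and 0.192 RPKM (CD24hi), 0.196, 0.389 and 0.421 RPKM (CD24lo) and 0.0978, 0.151 and 0.0928 RPKM (EpCAM-negative). BSC libraries were the highest, non-basal libraries came next, and every lung library was below both. *Gen1* was higher in BSCs than in alveolar cells (log2 fold change 2.21, SE 0.24, adjusted p = 2.39e-07) and than in non-basal cells (log2 fold change 1.06, SE 0.19, adjusted p = 0.000167). *Slx4* was at a mean of 4.1 ± 0.568 RPKM (SD, n = 3) in BSCs and a mean of 3.13 ± 0.185 RPKM (SD, n = 3) in alveolar cells, a log2 fold change of 0.39 that was called.

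Within the lung airway, CD24hi cells had more *Fanca*, *Exo1* and *Brca1* and less *Eme1*, *Rad51b* and *Xrcc2* than CD24lo cells of the same mice. Of the 34 members, 8 were higher in CD24hi cells, 10 were lower and 16 were not called. The share called, 52.9%, was near that of all genes tested, 55.0% (27.8% higher and 27.2% lower). The median log2 fold change was -0.10 over the members and -0.06 over all genes. The 6 largest rises were those of *Fanca* (3.29, SE 0.25, adjusted p = 8.23e-09), *Exo1* (1.51, SE 0.42, adjusted p = 0.00563), *Brca1* (1.16, SE 0.27, adjusted p = 0.00134), *Fancl* (0.84, SE 0.13, adjusted p = 1.92e-05), *Ube2t* (0.64, SE 0.26, adjusted p = 0.042) and *Mre11a* (0.40, SE 0.11, adjusted p = 0.00423). The 6 largest falls were those of *Eme1* (-3.24, SE 0.77, adjusted p = 0.00158), *Rad51b* (-3.19, SE 0.17, adjusted p = 3.88e-10), *Xrcc2* (-1.79, SE 0.24, adjusted p = 5.39e-06), *Bard1* (-1.74, SE 0.37, adjusted p = 0.000694), *Fancm* (-1.29, SE 0.18, adjusted p = 8.44e-06) and *Gen1* (-1.16, SE 0.34, adjusted p = 0.0102). *Brca1* and *Bard1*, partners in the same ligase, thus moved in opposite directions. The *Eme1* value rests on 2 reads in CD24hi cells, and the ratio of CD24lo to CD24hi cells was 10.6 with a 95% counting interval of 2.5 to 95.2. With library size alone, 13 members were higher and 7 lower, while the median of all genes moved to 0.21.

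Some of these calls depended on single libraries. *Ube2t* was lost in 11 of 17 alternatives (adjusted p from 0.00273 to 0.151), with the replicate block (0.0596) and without CD24hi replicate 2 (0.145), CD24hi replicate 3 (0.151), CD24lo replicate 1 (0.106), CD24lo replicate 2 (0.0731) or CD24lo replicate 3 (0.0712). *Gen1* was lost in 4 of 17 (0.00242 to 0.066), including without CD24lo replicate 2 (0.0598) or CD24lo replicate 3 (0.066). *Mre11a* was lost in 1 of 17 (3.55e-05 to 0.093), when only the libraries compared were fitted.

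Against alveolar cells of the same lungs, CD24lo cells gave the fewest calls of the 6 comparisons. Of the members 7 were higher, 4 were lower and 23 were not called, 11 called in all, while 48.4% of all genes tested were called, 24.2% in each direction. The median log2 fold change was 0.07 over the members and 0.03 over all genes. The 7 resection genes lay between -0.09 and 0.61 on the log2 scale and the 3 strand exchange factors between 0.11 and 0.26. The rises named by the rule were *Rad51b* (2.87, SE 0.17, adjusted p = 2.73e-10), *Fanca* (2.29, SE 0.36, adjusted p = 4.43e-05), *Fancd2* (1.43, SE 0.20, adjusted p = 1.07e-05), *Ube2t* (1.15, SE 0.31, adjusted p = 0.00486), *Bard1* (0.99, SE 0.36, adjusted p = 0.0287) and *Xrcc3* (0.79, SE 0.26, adjusted p = 0.0186). The falls were *Mus81* (-0.82, SE 0.13, adjusted p = 4.07e-05), *Slx4* (-0.73, SE 0.15, adjusted p = 0.000523), *Xrcc2* (-0.57, SE 0.20, adjusted p = 0.0251) and *Fance* (-0.31, SE 0.12, adjusted p = 0.0434). With a gene-length correction, 4 members were higher and 10 lower, while the median of all genes moved to -0.18. Without alveolar replicate 3, 6 members were called in place of 11.

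In this comparison 4 of the named calls were lost when a library was left out. *Bard1* was lost in 6 of 17 alternatives (adjusted p from 0.00107 to 0.14), including without CD24lo replicate 3 (0.14), alveolar replicate 1 (0.138) or alveolar replicate 3 (0.107). *Xrcc3* was lost in 3 of 17 (0.00488 to 0.0923), including without CD24lo replicate 1 (0.0923) or alveolar replicate 3 (0.091). *Xrcc2* was lost in 5 of 17 (0.0032 to 0.131), including without CD24lo replicate 1 (0.0699), CD24lo replicate 2 (0.131), alveolar replicate 1 (0.0753) or alveolar replicate 3 (0.0579). *Fance* was lost in 8 of 17 (0.000219 to 0.177), including without CD24lo replicate 2 (0.121), CD24lo replicate 3 (0.154), alveolar replicate 1 (0.0983) or alveolar replicate 3 (0.177).

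In CD24hi against alveolar cells, *Fanca* had the largest rise and *Xrcc2* the largest fall of the called members. Of the 34, 10 were higher, 11 were lower and 13 were not called, so that 61.8% were called, near the 61.9% of all genes tested (30.5% higher and 31.4% lower). The median log2 fold change was -0.29 over the members and -0.01 over all genes. All 4 nuclease genes were lower, of which *Slx4* and *Mus81* alone were called with library size alone. The named rises were *Fanca* (5.58, SE 0.31, adjusted p = 4.23e-11), *Exo1* (2.12, SE 0.45, adjusted p = 0.000516), *Brca1* (1.81, SE 0.28, adjusted p = 2.35e-05), *Ube2t* (1.79, SE 0.29, adjusted p = 2.69e-05), *Fancl* (1.17, SE 0.13, adjusted p = 2.85e-07) and *Rad54l* (0.98, SE 0.35, adjusted p = 0.0226). The named falls were *Xrcc2* (-2.36, SE 0.23, adjusted p = 5.80e-08), *Eme1* (-2.32, SE 0.87, adjusted p = 0.0274), *Fancm* (-1.34, SE 0.18, adjusted p = 3.31e-06), *Gen1* (-1.17, SE 0.34, adjusted p = 0.00641), *Fanci* (-0.84, SE 0.23, adjusted p = 0.00431) and *Fancc* (-0.74, SE 0.16, adjusted p = 0.000675). With library size alone 14 members were higher and 5 lower, and with a gene-length correction 6 were higher and 15 lower, while the median of all genes moved to 0.29 and -0.23.

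Of these calls, *Rad54l* was lost in 6 of 16 alternatives (adjusted p from 0.00456 to 0.0927), including without CD24hi replicate 1 (0.0561), CD24hi replicate 2 (0.0511), alveolar replicate 1 (0.0801) or alveolar replicate 3 (0.0927). *Eme1*, with 2 reads against 9, was lost in 4 of 15 (0.0114 to 0.167), including without CD24hi replicate 2 (0.0989) or alveolar replicate 2 (0.167), and the ratio of alveolar to CD24hi cells was 5.53 with a 95% counting interval of 1.14 to 52.6. *Gen1* was lost in 2 of 17 (0.00275 to 0.0626), including without alveolar replicate 2 (0.0626). *Fanci* was lost in 1 of 16 (0.0011 to 0.0641), with library size alone. It shares 16% of its exonic bases with *Polg* on the opposite strand, which fell by 1.38 on the log2 scale in the same comparison. *Fancl* shares 13.7% with *Vrk2*, which rose by 0.55 beside it, and the part of shared reads was not tested for either gene. In BSCs against alveolar cells *Vrk2* rose by 1.515 and *Fancl* by 0.343, and there too the part of shared reads was not tested. *Gen1* had 19 reads over the 3 CD24hi libraries.

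EpCAM-negative cells differed from alveolar cells of the same lungs in 17 members, of which 10 were higher and 7 lower, and 17 were not called. Among all genes tested 61.9% were called, 32.7% higher and 29.2% lower. Members and all genes had the same median log2 fold change, 0.01. The named rises were *Fancc* (2.90, SE 0.15, adjusted p = 1.77e-11), *Xrcc3* (1.35, SE 0.25, adjusted p = 0.000154), *Brip1* (1.30, SE 0.26, adjusted p = 0.000361), *Rad50* (1.18, SE 0.11, adjusted p = 2.44e-08), *Blm* (0.92, SE 0.32, adjusted p = 0.0197) and *Rad51b* (0.90, SE 0.19, adjusted p = 0.000585). *Rad50* was measured at 9.72, 9.92 and 10.1 RPKM in the EpCAM-negative libraries, 9.48, 9.34 and 8.82 RPKM in BSC libraries and 6.39, 6.14 and 6.4 RPKM in non-basal libraries. It was at 5.68, 5.92 and 6.07 RPKM in CD24hi libraries, 4.66, 5.39 and 5.18 RPKM in CD24lo libraries and 4.98, 4.7 and 3.45 RPKM in alveolar libraries. Its highest values were thus in EpCAM-negative cells and BSCs, whose ranges did not overlap but lay close together. *Mre11a* and *Nbn*, which act with *Rad50*, were not called here (0.08 and 0.21).

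The named falls in EpCAM-negative cells were *Gen1* (-1.54, SE 0.36, adjusted p = 0.00115), *Rbbp8* (-1.46, SE 0.17, adjusted p = 4.46e-07), *Mus81* (-0.99, SE 0.13, adjusted p = 2.43e-06), *Rad51c* (-0.97, SE 0.38, adjusted p = 0.0332), *Ube2t* (-0.91, SE 0.38, adjusted p = 0.0437) and *Fancd2* (-0.60, SE 0.23, adjusted p = 0.0294). The values of *Gen1* and *Ube2t* rest on 14 and 21 reads over the 3 EpCAM-negative libraries. *Efemp2*, the antisense neighbour of *Mus81*, moved the other way, with a log2 fold change of 1.48. With library size alone 13 members were higher and 3 lower, and with a gene-length correction 8 were higher and 16 lower, while the median of all genes moved to 0.19 and -0.17. The 4 comparisons against alveolar cells, BSCs included, share the same 3 alveolar libraries.

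Again 4 of the named calls changed with single libraries. *Ube2t* was lost in 13 of 17 alternatives (adjusted p from 0.0159 to 0.142), with the replicate block (0.0539) and without EpCAM-negative replicate 1 (0.114), EpCAM-negative replicate 3 (0.142), alveolar replicate 1 (0.139) or alveolar replicate 2 (0.0706). *Fancd2* was lost in 7 of 17 (0.00132 to 0.136), including without EpCAM-negative replicate 1 (0.121), alveolar replicate 1 (0.0662) or alveolar replicate 3 (0.0566). *Rad51c* was lost in 6 of 17 (0.0017 to 0.179), including without EpCAM-negative replicate 1 (0.0766), EpCAM-negative replicate 2 (0.0533), EpCAM-negative replicate 3 (0.0769) or alveolar replicate 3 (0.179). *Blm* was lost in 5 of 17 (0.00583 to 0.205), including without EpCAM-negative replicate 1 (0.0691), EpCAM-negative replicate 3 (0.0581) or alveolar replicate 3 (0.118).

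Other genes of the same pathways, 37 in number and none of them a member, were followed alongside. In BSCs against alveolar cells 15 were higher, 6 lower and 16 not called (median log2 fold change 0.09), among them *Polq* (2.20) and *Rad51ap1* (2.01). The share called was 56.8%, against 66.1% of all genes tested. Against non-basal cells 10 were higher, 2 lower and 25 not called (median 0.18), among them *Fancb* (-1.09) and *Polq* (0.99). Here 32.4% were called, against 48.2% of all genes tested. *Polq* encodes a polymerase of an alternative end-joining route, and *Fancb* is a core subunit.

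In CD24hi against CD24lo cells 11 of the 37 were higher and 10 lower (median 0.06), led by *Dna2* (2.54), *Rmi2* (-1.80) and *Fancb* (-1.75). Against alveolar cells, CD24lo cells had 7 higher and 7 lower (median 0.03), led by *Dna2* (1.64), *Atr* (0.91) and *Fancb* (0.80), and CD24hi cells had 12 higher and 12 lower (median -0.13), led by *Dna2* (4.18), *Rmi2* (-2.31) and *Atr* (1.94). *Dna2*, a nuclease of long-range resection, was at 9.76 RPKM in CD24hi cells, 1.65 RPKM in CD24lo cells and 0.533 RPKM in alveolar cells. EpCAM-negative cells had 9 higher and 14 lower (median -0.01), led by *Rmi2* (-3.41), *Rad18* (2.04) and *Rad51ap1* (-1.26). In the order given, 56.8%, 37.8%, 64.9% and 62.2% of the 37 were called, against 55.0%, 48.4%, 61.9% and 61.9% of all genes tested. *Rmi2* had 1 read in each EpCAM-negative library, and the ratio of alveolar to EpCAM-negative cells was 11.3 with a 95% counting interval of 3.52 to 58.2.

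Proliferation markers and replication genes moved with the members in the BSC comparisons. Against alveolar and against non-basal cells alike, 100% of proliferation markers and 86.7% of replication genes were called. Among all genes tested the shares were 66.1% and 48.2%. Of 15 mitosis and proliferation markers, 14 were higher and 1 (*Bub1*, a spindle checkpoint kinase) was lower in BSCs than in alveolar cells, with a median log2 fold change of 2.85, led by *Plk1* (4.29), *Mki67* (3.63) and *Cenpf* (3.53). Against non-basal cells 14 were higher and 1 (*Plk1*, a mitotic kinase) was lower, with a median of 1.17, led by *Mki67* (1.58), *Kif11* (1.40) and *Ccna2* (1.33). The markers summed to 430 to 486.7 CPM in BSCs, 208.9 to 229.6 in non-basal cells and 72.58 to 102.7 in alveolar cells, and to at most 74.48 in the other lung gates. Of 15 replication genes 13 were higher in BSCs and 2 were not called in each of the 2 comparisons, with medians of 1.06 and 0.79, led by *Gins2* (2.06), *Rrm2* (1.96) and *Pola1* (1.55) against alveolar cells and *Prim1* (1.16), *Mcm3* (1.11) and *Mcm5* (1.09) against non-basal cells. The part of proliferating cells in the members' differences was not tested.

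Between lung gates the same lists moved in both directions. In CD24hi against CD24lo cells 53.3% of proliferation markers and 66.7% of replication genes were called, against 55.0% of all genes tested. In CD24lo against alveolar cells 40% and 46.7% were called, against 48.4%. CD24hi against alveolar cells gave 66.7% and 73.3%, and EpCAM-negative against alveolar cells 60% and 73.3%, each against 61.9%. In CD24hi against CD24lo cells 1 proliferation marker was higher and 7 were lower, led by *Plk1* (-2.61), *Mki67* (-1.82) and *Birc5* (-1.66), and 2 replication genes were higher and 8 lower, led by *Mcm5* (-1.93), *Cdc45* (1.11) and *Prim1* (-1.04). In CD24lo against alveolar cells 3 proliferation markers were higher and 3 lower, led by *Bub1* (-4.15), *Plk1* (2.95) and *Bub1b* (-1.49), and 7 replication genes were lower and 8 not called, led by *Mcm2* (-0.98), *Mcm5* (-0.59) and *Mcm7* (-0.57). In CD24hi against alveolar cells 2 and 8 proliferation markers were higher and lower, led by *Bub1* (-5.80), *Bub1b* (-1.90) and *Mki67* (-1.66), and 1 and 10 replication genes, led by *Mcm5* (-2.52), *Tyms* (-1.39) and *Mcm2* (-1.39). In EpCAM-negative against alveolar cells 9 proliferation markers were lower and 6 not called, led by *Bub1* (-5.64), *Cdc20* (-2.25) and *Cdk1* (-1.98), and 5 and 6 replication genes were higher and lower, led by *Cdc6* (1.31), *Mcm2* (-1.19) and *Mcm4* (0.93). *Exo1* and *Brca1* were higher in CD24hi cells than in both other epithelial gates of the lung, with *Exo1* at 17 reads in all in CD24lo and 12 in alveolar cells. How these differences relate to proliferation was not tested.

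As a description, the log2 level of each member was correlated with the mean of the 15 proliferation markers over the 18 libraries, which share mice, populations and a difference in depth between organs. Pearson's r ran from -0.86 (*Rad52*) to 0.98 (*Gen1*), with a median of 0.64. It was above 0.7 for 13 members, between 0 and 0.7 for 14 and below 0 for 7. *Gen1*, *Rbbp8* and *Rad54b* came closest to the markers, at 0.98, 0.95 and 0.91. The 7 below 0 were *Xrcc2*, *Xrcc3*, *Fancc*, *Mus81*, *Fancf*, *Fance* and *Rad52*. Over the 15 libraries that remain without BSCs, the median was 0.38, with 6 members above 0.7, 18 between and 10 below 0. *Brip1* then fell from 0.55 to 0.06, *Brca2* from 0.67 to 0.23 and *Rad50* from 0.15 to -0.39, while *Gen1* was at 0.95.

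**Figure D4:**
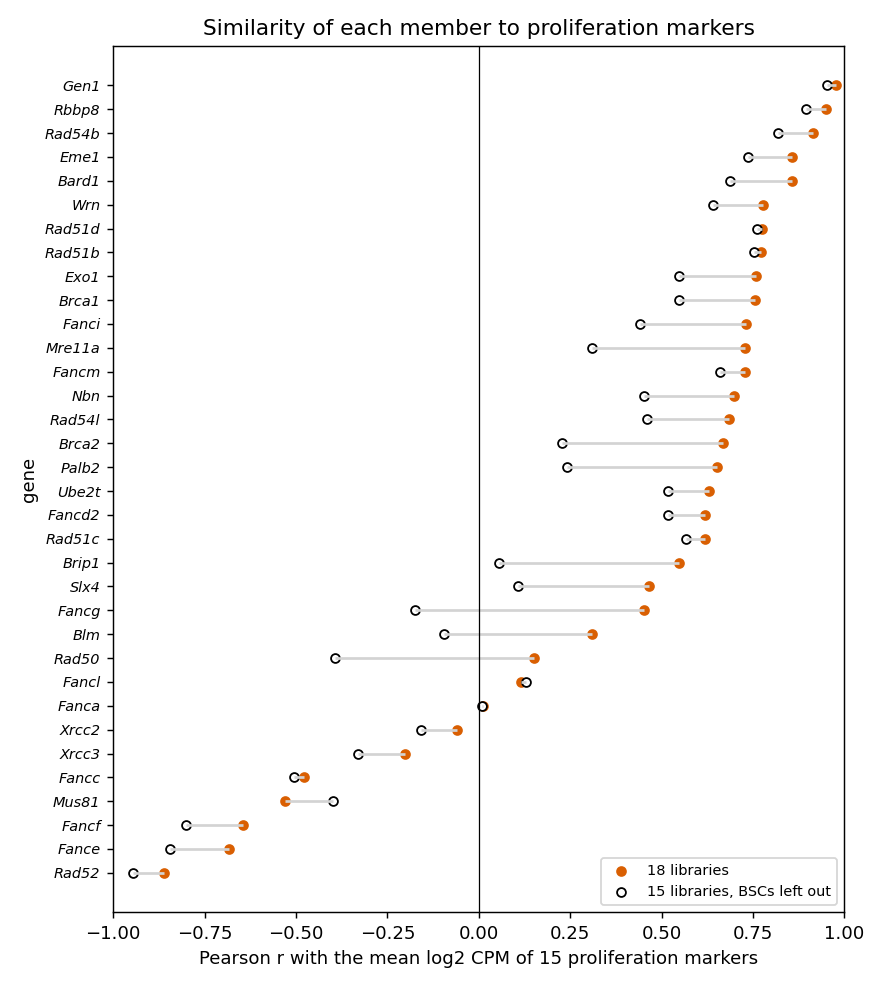
Pearson's r between the log2 CPM of each member (rows) and the mean log2 CPM of 15 proliferation markers, over all 18 libraries (filled) and over the 15 libraries without BSCs (open). Values run from -0.86 for *Rad52* to 0.98 for *Gen1* over all libraries, and most open points lie to the left of the filled ones.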

How the data were processed

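RNA of 18 libraries was sequenced as single-end reads. The authors aligned them to the mouse genome mm10 with Rsubread and counted reads per RefSeq gene with featureCounts; per the labels, bcl2fastq (1.8.4) made the read files. The deposited values are raw whole-number counts per gene for each library, without normalization, and whether counting used strand is not given in the sources used here. The 34 members and the other lists were chosen with earlier results of these data known.

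Genes above 0.2 CPM (counts scaled to library size) in at least 3 libraries were kept (17989 of 27179). Counts were fitted for all 18 libraries with edgeR (4.0.16, R 4.3.3) by quasi-likelihood after TMM scaling, with population as the only term, and p-values were adjusted by Benjamini-Hochberg over all genes tested, with a threshold of 0.05. RPKM and CPM levels used TMM-scaled library sizes, and RPKM the gene length in the files. Each standard error (SE) is the absolute log2 fold change divided by the square root of the quasi-likelihood F statistic. Per comparison, statistics were given for up to 6 called members with the largest rise and up to 6 with the largest fall, and for up to 3 called genes of each other list, of which 1 is not reported here. Values in every library were given for members so named in the BSC comparisons, or highest in another population than BSCs. Correlations used log2 CPM with a prior count of 2. Total counts per library are given with the results, and intervals cover counting error only. Animals gave several populations each, per the labels: deviations from population means correlated at -0.059 to 0.336 between libraries of 1 mouse (21 pairs, median 0.056) and at -0.053 to 0.064 between mice (24 pairs). No libraries were duplicates (smallest chi-square per degree of freedom 3.505). On simulated data for BSCs against alveolar cells (17609 genes, 200 changed 2-fold), 126 were recovered with 2 false calls. Alternatives were limma voom (3.58.1), DESeq2 (1.42.0), RLE factors, library size alone, 2 filters on low counts, only the libraries compared, mouse as a block, a gene-length correction, both of these, and each library left out; a limit on exonic overlap was chosen after seeing the data. Exonic overlaps came from GENCODE M21 and promoters from RefSeq GRCm38.p6. All 18 libraries were used. Figures were drawn with matplotlib (3.10.9).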

Additional observations from a re-analysis of the deposited data

How the results depend on the processing

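The 6 counts of called members were recomputed under 17 alternatives each, and 99 of 102 values stayed within 1.5 times the reported count. The exceptions were 30 members in BSCs against non-basal cells when scaled by library size only (reported 19), and in CD24lo against alveolar cells 7 when only those libraries were fitted and 6 without alveolar replicate 3 (reported 11). With each library left out in turn, the counts ran from 24 to 28 for BSCs against alveolar cells, from 16 to 20 for BSCs against non-basal cells and from 15 to 19 for CD24hi against CD24lo cells. They ran from 6 to 13, from 19 to 23 and from 13 to 17 for CD24lo, CD24hi and EpCAM-negative cells against alveolar cells. With mouse as a replicate block, justified by shared animals, the counts in the same order were 29, 19, 17, 10, 22 and 16; the block ended the calls of *Ube2t* in CD24hi against CD24lo cells and in EpCAM-negative against alveolar cells and changed no other named call. Of 62 calls of members named with statistics, 45 were kept in every alternative run, and 17 were lost in at least 1. The single reversal was *Fance* in BSCs against alveolar cells, at 0.003 (adjusted p = 0.992) under that scaling; the cause was not tested. Restricted to the 24 members with at most 5% of exonic bases shared with another gene, an alternative chosen after seeing the data, the counts were 19, 13, 13, 9, 14 and 14, since fewer members were tested. Lung libraries were shallower than tracheal ones, and there *Eme1*, *Exo1*, *Rad54b*, *Rad54l*, *Bard1*, *Gen1* and *Ube2t* had 30 reads or fewer in at least 1 population.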

Other observations

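*Dna2* and *Atr*, recombination and replication-stress genes outside the list of 34, had their highest mean level in CD24hi cells. Both were singled out after their values were seen. *Dna2*, a nuclease and helicase of long-range resection, was measured at 8.24, 10.8 and 10.2 RPKM in the CD24hi libraries, against 2.61, 1.36 and 0.977 RPKM in CD24lo libraries and 0.556, 0.603 and 0.441 RPKM in alveolar libraries. In BSC libraries it was at 0.994, 0.556 and 0.548 RPKM, so the CD24hi libraries did not overlap with these 3 populations. *Dna2* was higher in CD24hi than in CD24lo cells (log2 fold change 2.54, SE 0.30, adjusted p = 1.13e-06, edgeR quasi-likelihood test) and than in alveolar cells (log2 fold change 4.18, SE 0.34, adjusted p = 6.24e-09). *Atr*, the kinase that answers stalled replication, was at 6.38, 10.03 and 11.4 RPKM in CD24hi libraries, 4.48, 4.55 and 4.55 RPKM in CD24lo libraries and 2.51, 2.71 and 1.99 RPKM in alveolar libraries. Its log2 fold change between CD24hi and alveolar cells was 1.94. *Rmi2*, which acts with the *Blm* helicase to dissolve crossed-over DNA, went the other way, at 0.0404, 0.0594 and 0.0421 RPKM in CD24hi libraries and 0.165, 0.246 and 0.324 RPKM in alveolar libraries. These values rest on 2, 3 and 2 reads in CD24hi libraries and 7, 10 and 12 reads in alveolar libraries.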
